A study of Mus musculus with 4 samples.

Results

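The genes described are 10 receptors and receptor subunits with which myeloid cells sense microbes and antibody: Cd14, Tlr2, Tlr4, Ly96, Trem1, Clec4d, Clec4e, Fcgr3, Fcgr2b and Fcer1g. They were chosen by gene symbol in the platform annotation and are covered by 11 of the 29922 probes, Tlr4 by 2 and each other gene by 1. The arrays name 16637 genes, and the 10056 of them whose intensity was at or above the median of the named probes (270.5 on the mock array) on any of the 4 arrays count as measured. All but Trem1 of the 10 receptor genes did so. Colon RNA of female mice was labelled with Cy3 and hybridised to 1-colour arrays, 1 array per group. Of 24 mice in 4 groups of 6, one group received 250 mg/kg trinitrobenzene sulfonic acid (TNBS) mixed with zingerone, a phenolic ketone of ginger, another the same TNBS dose mixed with ginger extract, and another TNBS alone. The mock group received the vehicle that all groups share, 0.1 ml with 50% ethanol, which with TNBS is used to provoke colitis in rodents. Colons were taken on day 7. The strain is labelled BALB/c for the mock sample and BALC/c for the other 3 samples. Age, the amounts of zingerone and ginger on the arrays, and the number of mice behind each array were not given in the sources used here.

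CD14 is an anchored surface protein that hands bacterial lipopolysaccharide to the complex of TLR4 and MD-2 (encoded by Ly96), and TLR2 recognises bacterial lipopeptides together with TLR1 or TLR6. TREM-1 amplifies such signals in neutrophils and monocytes through the adaptor DAP12. The C-type lectins MCL (Clec4d) and Mincle (Clec4e) bind glycolipids, among them those of mycobacteria, and signal through the common Fc receptor gamma chain (Fcer1g), which carries an immunoreceptor tyrosine-based activation motif (ITAM). The same chain serves the activating IgG receptor Fc gamma RIII (Fcgr3), whereas Fc gamma RIIb (Fcgr2b) carries an inhibitory motif (ITIM). In the colon these receptors are found mainly on macrophages, monocytes and incoming neutrophils, which lie close to a dense bacterial flora.

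On the TNBS array 4 of the 10 receptor genes were at least 2-fold higher than on the mock array and none was 2-fold lower: Cd14 (21.2-fold), Clec4d (17.2-fold), Fcgr3 (6.88-fold) and Fcer1g (3.88-fold). Over all measured genes, 5.08% were 2-fold higher and 4.52% 2-fold lower. The same 4 genes were at least 2-fold lower on the TNBS/zingerone and on the TNBS/ginger array than on the TNBS array, but Clec4d and Cd14 stayed more than 3-fold above the mock array on both. The lipopolysaccharide receptor Tlr4, its partner Ly96, Tlr2, Clec4e, Fcgr2b and Trem1 differed by less than 2-fold between any 2 arrays. The design holds no replicate arrays, so the differences carry neither errors nor p-values, and precision is limited by this number of arrays. In bulk colon RNA, more cells of a type and more RNA per cell cannot be told apart.

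Clec4d and Clec4e are neighbours on chromosome 6 with no protein-coding gene between them in the RefSeq order of assembly GRCm38.p6. Fcgr2b, Fcgr4 and Fcgr3 follow each other on chromosome 1, with 7 further protein-coding genes before Fcer1g. The 250 bases before the RefSeq start of Clec4d, Clec4e, Fcgr3 and Fcgr2b are shown (GRCm38.p6, 5′ to 3′ on the gene's strand), since in each locus the first gene of the pair was at least 2-fold higher on the TNBS array than on mock and the second was not. For Fcgr2b this holds without background subtraction only, after which it passed 2-fold. Fcgr3 has 2 starts in the sequences used, and only the window of the first listed was searched and is shown. Capitals mark matches, on either strand, to GAGGAA (a core of the myeloid factor PU.1), an NF-κB-type motif (GGG and TTCC with any 3 bases between), TTGCNNAA (C/EBP type) or TGANTCA (AP-1 type); no matches overlapped.
Clec4d, chr6:123261857-123262106, plus strand: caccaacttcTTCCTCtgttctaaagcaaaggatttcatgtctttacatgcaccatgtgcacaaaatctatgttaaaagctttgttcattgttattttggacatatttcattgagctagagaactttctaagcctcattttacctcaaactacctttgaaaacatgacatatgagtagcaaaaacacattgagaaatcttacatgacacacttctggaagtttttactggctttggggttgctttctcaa
Clec4e, chr6:123289872-123290121, minus strand: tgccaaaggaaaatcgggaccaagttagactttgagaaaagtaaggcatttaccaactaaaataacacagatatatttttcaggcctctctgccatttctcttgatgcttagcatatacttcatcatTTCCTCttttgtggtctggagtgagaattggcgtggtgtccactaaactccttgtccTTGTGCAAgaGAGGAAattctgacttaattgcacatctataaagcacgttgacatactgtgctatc
Fcgr3, chr1:171059404-171059653, minus strand: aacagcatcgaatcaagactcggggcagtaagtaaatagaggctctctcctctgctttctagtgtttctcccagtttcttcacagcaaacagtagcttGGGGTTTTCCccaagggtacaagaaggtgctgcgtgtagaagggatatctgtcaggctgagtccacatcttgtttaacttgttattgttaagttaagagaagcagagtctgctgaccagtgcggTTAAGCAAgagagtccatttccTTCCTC
Fcgr2b, chr1:170976072-170976321, minus strand: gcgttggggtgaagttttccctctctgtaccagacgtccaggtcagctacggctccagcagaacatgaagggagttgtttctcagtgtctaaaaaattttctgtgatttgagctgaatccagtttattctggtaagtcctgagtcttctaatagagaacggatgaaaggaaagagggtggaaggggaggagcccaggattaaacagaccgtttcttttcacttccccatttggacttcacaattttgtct

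RefSeq sequences were matched for 7 of the 10 receptor genes (Tlr2, Trem1, Clec4d, Clec4e, Fcgr3, Fcgr2b and Fcer1g). GAGGAA was found in 4 of these windows, those of Clec4d, Clec4e, Fcgr3 and Trem1, and it occurs in 23.3% of all 32851 windows of the same length. Clec4e, with little difference between the TNBS and mock arrays, holds it 2 times beside a C/EBP-type match, while Clec4d holds it 1 time and no other motif. The NF-κB-type motif was in the windows of Fcgr3 and Tlr2 (4.65% of all windows), and the C/EBP-type motif in those of Clec4e and Fcgr3 (9.56%). The AP-1-type motif, present in 6.75% of all windows, was in none of the 7. No motif searched was found in the windows of Fcgr2b and Fcer1g. A match is only a description of the letters in this window.

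Among the genes of lipopolysaccharide sensing, Cd14 had by far the widest range. Its probe (mMC017708) read 4097 on the TNBS/zingerone array, 4222 on the TNBS/ginger array, 28071 on the TNBS array and 1322 on the mock array. Cd14 was thus highest with TNBS alone, nearly level between zingerone and ginger, and lowest in mock, and it ranked at place 19 from the top of all measured genes in TNBS minus mock (4.41, log2). The 2 Tlr4 probes were unlike each other. The first read 205 on TNBS/zingerone, 208 on TNBS/ginger, 317.8 on TNBS and 195.5 on mock, where only the TNBS value lay above the median of the named probes. The second read 347 on TNBS/zingerone, 408 on TNBS/ginger, 497 on TNBS and 465 on mock. Both were highest on the TNBS array, by 0.70 and 0.09 (log2) over mock, and the Tlr4 mean was 1.32-fold higher. Ly96 read 484 on TNBS/zingerone, 350.2 on TNBS/ginger, 501 on TNBS and 378 on mock. Its TNBS value was 1.33-fold above mock, so the 21.2-fold difference of Cd14 had no counterpart of like size in the genes of the receptor complex it serves. Tlr4 and Ly96 were dim beside Cd14, and intensities without background subtraction understate the folds of dim probes.

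Tlr2, the lipopeptide receptor, was the member whose values on the zingerone and ginger arrays lay furthest apart. It read 404.5 on TNBS/zingerone, 237 on TNBS/ginger, 384 on TNBS and 293 on mock. TNBS with zingerone was thus the highest and TNBS with ginger the lowest of the 4, 1.71-fold apart, while TNBS exceeded mock by 1.31-fold. Trem1 read 253 on TNBS/zingerone, 237 on TNBS/ginger, 224 on TNBS and 236 on mock. All 4 Trem1 values lay below the median of the named probes on their array and within 1.13-fold of each other, so at this signal no difference in Trem1 was detectable.

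The C-type lectin genes split. Clec4d read 1134 on TNBS/zingerone, 1224 on TNBS/ginger, 4382 on TNBS and 254 on mock. It was highest on TNBS by 17.2-fold over mock (4.11, log2), with both treated arrays in between. The mock value lay below the median of the named probes, and with a low percentile of each array subtracted as background the log2 difference was 5.01. Clec4e read 491 on TNBS/zingerone, 547 on TNBS/ginger, 725 on TNBS and 683 on mock. TNBS and mock were nearly level for Clec4e, and both treated arrays lay below mock, by 0.48 (zingerone) and 0.32 (ginger) on the log2 scale. The lectin gene next to Clec4d on its other side, Clec4n (Dectin-2), read 492 on TNBS/zingerone, 437 on TNBS/ginger, 521.5 on TNBS and 445 on mock, and also differed by less than 2-fold between any 2 arrays.

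Of the Fc receptor genes, the activating receptor and the signalling chain were high on the TNBS array. Fcgr3 read 834 on TNBS/zingerone, 1053 on TNBS/ginger, 3359 on TNBS and 488 on mock. Fcer1g read 1676 on TNBS/zingerone, 2078 on TNBS/ginger, 4539 on TNBS and 1170 on mock. For both genes the order was TNBS, ginger, zingerone, mock from high to low. The inhibitory receptor Fcgr2b read 259.5 on TNBS/zingerone, 280.2 on TNBS/ginger, 418 on TNBS and 242.5 on mock, which kept the same order at 1.72-fold between TNBS and mock. Fcgr2b lay near the median of the named probes on every array but TNBS, and after background subtraction its TNBS-minus-mock difference was 1.30 (log2) and passed 2-fold. Fcgr3 and Fcgr2b encode very similar extracellular parts, and probe sequences were not used here, so signal of one gene on the probe of the other was not tested.

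**Figure D1:**
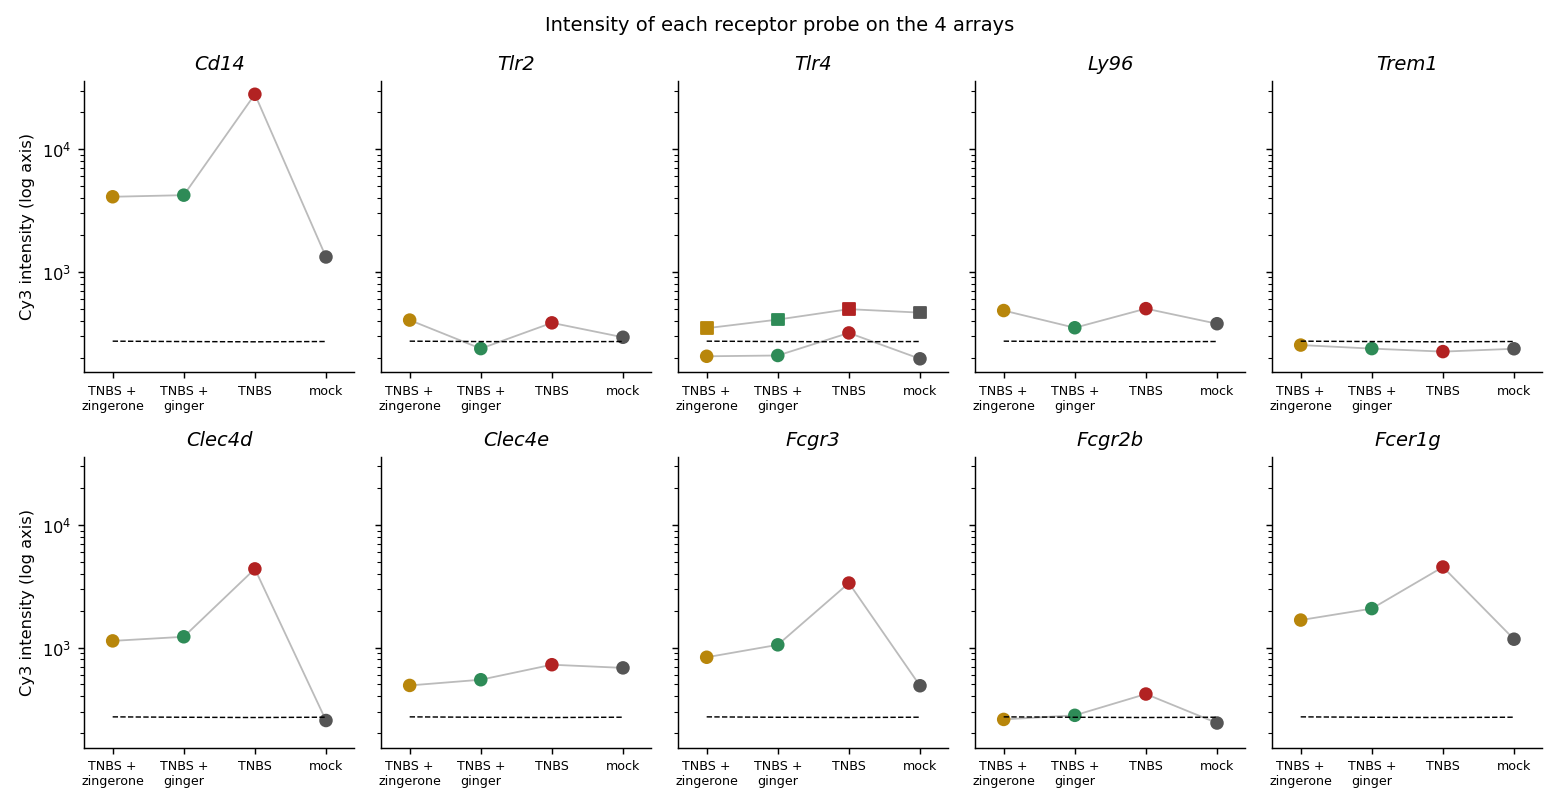
Cy3 intensity (log axis) of each probe of the 10 receptor genes on the TNBS/zingerone, TNBS/ginger, TNBS and mock arrays, 1 point per array; circles and squares in the Tlr4 panel are its 2 probes, and the dashed line is the median of the named probes. Cd14, Clec4d, Fcgr3 and Fcer1g peak on the TNBS array (28071, 4382, 3359 and 4539), while Trem1 lies below the dashed line on all 4 arrays.

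Set among all measured genes, the TNBS-minus-mock differences of Cd14, Clec4d, Fcgr3 and Fcer1g lay at percentiles 99.8, 99.8, 99.3 and 98.5. Fcgr2b was at percentile 92.3 and Ly96, Tlr4 and Tlr2 were between 81.5 and 82.3. The median over the 10 receptor genes was 0.60 (log2), against -0.04 over all measured genes. In all, 9 of the 10 were above the mock value, as were 46.1% of the measured genes; Trem1 was the exception, at -0.08. Subtracting background moved the median to 1.035 and brought Fcgr2b past 2-fold, which made 5 members. With it, 855 of 9930 measured genes were 2-fold higher, against 511 of 10056 without it.

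The TNBS/ginger array was set against the TNBS array to see how the receptor genes stood with ginger extract. Cd14 was 6.65-fold lower on the TNBS/ginger array, Clec4d 3.58-fold, Fcgr3 3.19-fold and Fcer1g 2.18-fold. These are 4 of 10 receptor genes, against 2.48% of measured genes that were 2-fold lower. No receptor gene was 2-fold higher, as 1.35% of measured genes were. Cd14 stood at place 11 from the bottom of all measured genes. The median over the receptor genes was -0.64 (log2), against 0.02 over all measured genes, and 9 of 10 lay below the TNBS value, as did 47.1% of the measured genes. Tlr2 was 1.62-fold lower and passed 2-fold after background subtraction (-1.19, log2). The smallest of the remaining decreases were those of Tlr4 (1.36-fold) and Clec4e (1.33-fold). Trem1 was 1.06-fold higher.

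Zingerone given with TNBS was compared with the same TNBS array, which both comparisons share. Cd14 was 6.85-fold lower on the TNBS/zingerone array, Fcgr3 4.03-fold, Clec4d 3.86-fold and Fcer1g 2.71-fold, and 2.96% of measured genes were 2-fold lower. No receptor gene was 2-fold higher, as 4.57% of measured genes were. The median over the 10 receptor genes was -0.63 (log2), against -0.02 over all measured genes, and 8 lay below the TNBS value, as did 51.5% of the measured genes. Fcgr2b was 1.61-fold lower and passed 2-fold after background subtraction (-1.10, log2). Tlr4 was 1.49-fold and Clec4e 1.48-fold lower. Ly96 (-0.05, log2) and Tlr2 (0.07) were nearly level with TNBS, and Trem1 was at 0.18.

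**Figure D2:**
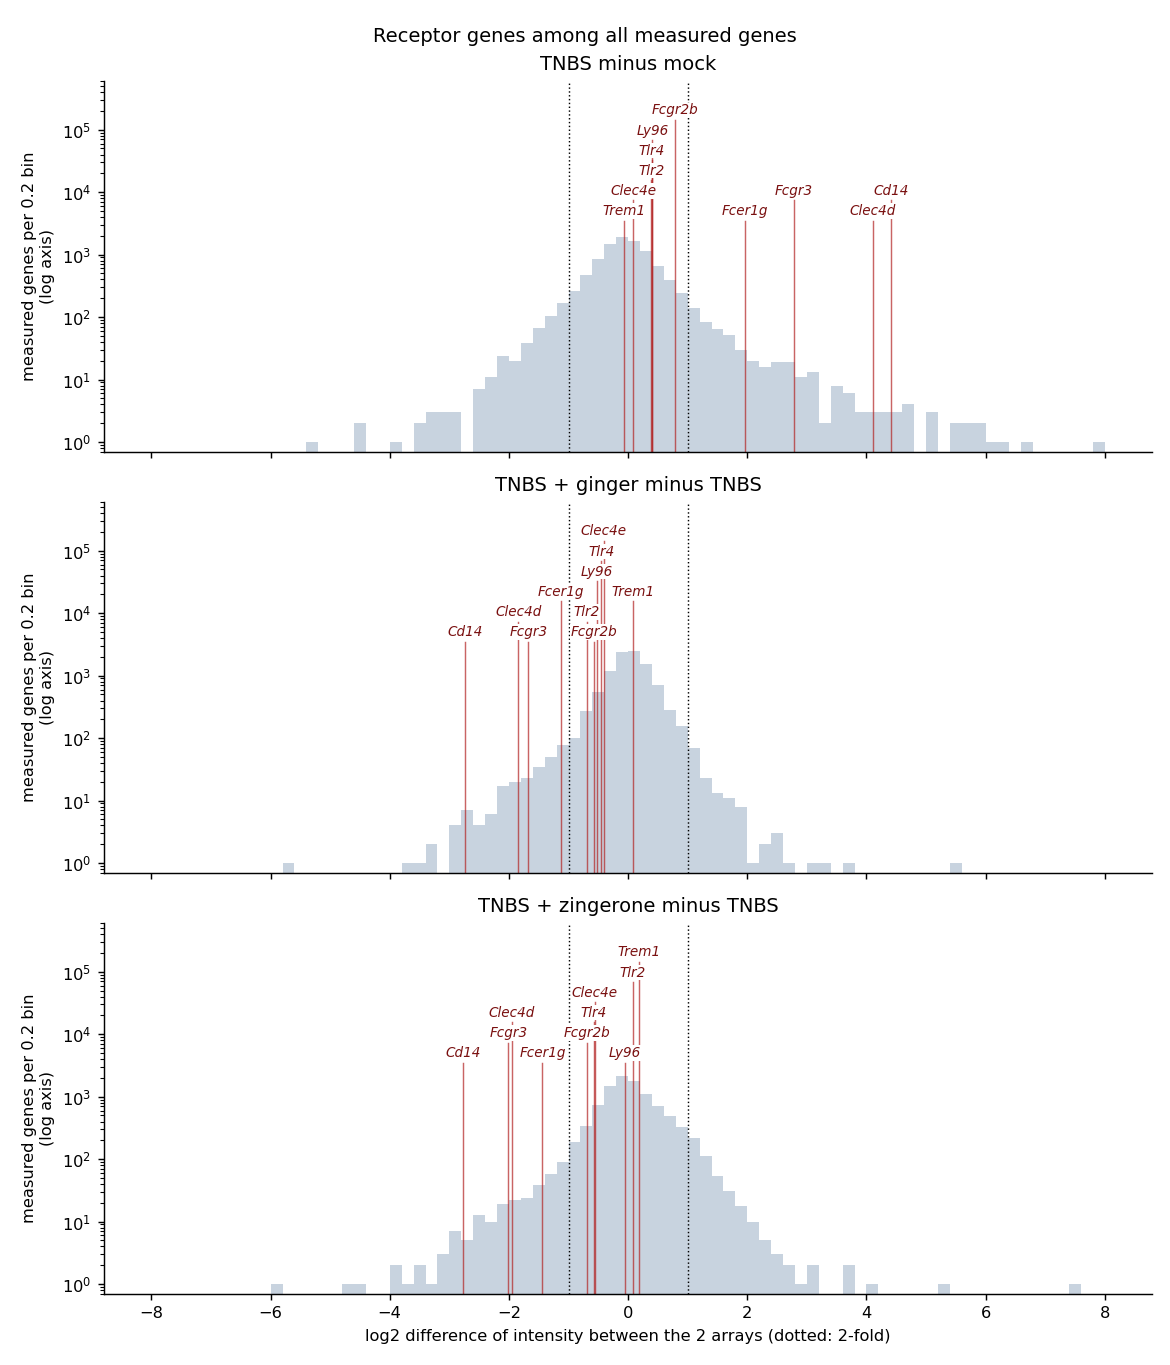
Number of measured genes per bin of 0.2 log2 units (log axis) by their log2 difference between 2 arrays, for TNBS minus mock, TNBS with ginger minus TNBS and TNBS with zingerone minus TNBS; red lines mark the 10 receptor genes (their heights only set the names apart) and dotted lines a 2-fold difference. Cd14 lies at 4.41, -2.73 and -2.78 in the 3 panels, and 6 of the 10 genes lie between the dotted lines in each.

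Against the mock array, what remained differed between the receptor genes. Clec4d was 4.46-fold higher on TNBS/zingerone and 4.82-fold higher on TNBS/ginger. Cd14 was 3.10-fold higher on TNBS/zingerone and 3.19-fold on TNBS/ginger. Fcgr3 was 1.71-fold above mock on TNBS/zingerone and 2.16-fold on TNBS/ginger, and Fcer1g 1.43-fold and 1.78-fold in the same order. At least 2-fold higher were thus 2 members with zingerone, where 1.53% of measured genes were, and 3 with ginger, where 1.62% were. None was 2-fold lower, as 1.05% of measured genes were with zingerone and 1.08% with ginger. Clec4d ranked at place 31 from the top of all measured genes against mock on each of these arrays.

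Between zingerone and ginger no receptor gene differed 2-fold, as 0.746% of measured genes did upwards and 0.358% downwards. Cd14 (-0.04, log2, zingerone minus ginger), Clec4d (-0.11) and Fcgr2b (-0.11) were nearly level. Fcgr3 (-0.34) and Fcer1g (-0.31) were lower with zingerone, at percentiles 8.44 and 10.2 of all measured genes. Tlr2 (0.77) and Ly96 (0.47) were higher with zingerone, at percentiles 98.0 and 91.3, and Tlr2 passed 2-fold after background subtraction (1.31).

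Relatives of these receptors were read from lists of genes chosen with earlier results of these data known, so the counts are descriptions. Over all measured genes, 5.08% were 2-fold higher on TNBS than on mock and 4.52% 2-fold lower. Of 16 other Toll-like receptors and accessory proteins 11 were measured. In that list Tlr13, a mouse receptor for bacterial ribosomal RNA, was 2.09-fold higher on TNBS than on mock, and Tlr1, a partner of TLR2, was 2.04-fold lower. Tlr13 passed the filter on dim genes through the TNBS array alone. Tlr1 read 525 on TNBS/zingerone, 369 on TNBS/ginger, 276 on TNBS and 563 on mock, the reverse of the Cd14 order. The list median was 0.20 (log2). Among 11 measured adaptors, kinases and inhibitors of Toll-like receptor signalling, 2 inhibitors were higher and no gene was lower: Irak3, which holds back IRAK kinases (6.43-fold), and Tnfaip3, the ubiquitin-editing enzyme A20 (6.14-fold). The adaptor Myd88 read 806 on TNBS/zingerone, 903 on TNBS/ginger, 1210 on TNBS and 1062 on mock, and the median of this list was -0.01.

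None of the 6 measured genes among other C-type lectin receptors and their signalling proteins differed 2-fold between TNBS and mock (median 0.25, log2). Largest in size were Clec4a3 (1.30-fold higher) and Bcl10, a scaffold that carries lectin signals to NF-κB (1.21-fold). Of 6 other Fc receptor genes measured, 1 was higher: Fcgr4, an activating IgG receptor of mice that also uses the gamma chain, read 611 on TNBS/zingerone, 599 on TNBS/ginger, 1899 on TNBS and 370 on mock. It lies between Fcgr2b and Fcgr3 and was 5.13-fold higher on TNBS than on mock, beside 1.72-fold for Fcgr2b and 6.88-fold for Fcgr3. The next largest was Fcgr1, the high-affinity IgG receptor (1.82-fold). Clec4a3 and Fcgr1 passed the filter on dim genes through the TNBS array alone. The median of the Fc receptor list was -0.21.

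Receptors of the TREM, CD300, PIR and LILR families included 3 of 10 measured genes that were 2-fold higher on TNBS than on mock and none lower (median 0.41, log2). Over all measured genes, 5.08% were 2-fold higher. Lilrb4a, an inhibitory immunoglobulin-like receptor, was 13.7-fold higher, with its 3 probes at 4.60, 3.11 and 3.62 (log2); signal from the near-identical gene Lilr4b was not tested. The inhibitory receptor Pirb was 5.07-fold and Trem3, a TREM family member of mice, 3.86-fold higher. Trem3 read 224 on TNBS/zingerone, 215 on TNBS/ginger, 636 on TNBS and 165 on mock, unlike the dim and level Trem1. Trem3 passed the filter on dim genes through the TNBS array alone. Treml1 (-0.08, log2), Cd300a (-0.31) and Cd300lb (-0.01), which did not pass, lay below mock. Of 11 measured ITAM and ITIM signalling proteins, all lay above the mock value, as did 46.1% of all measured genes, and 3 were 2-fold higher (median 0.75). The filter on dim genes shaped this count. Inpp5d and Lcp2 passed it through the TNBS array alone, and Lat2 (-0.42, log2) and Ptpn11 (-0.27), which did not pass, lay below mock. Tyrobp, which encodes the DAP12 adaptor of TREM receptors, read 1759 on TNBS/zingerone, 2552 on TNBS/ginger, 7189 on TNBS and 959 on mock, 7.49-fold higher on TNBS. The exchange factor Vav1 was 4.26-fold higher. Plcg2, between 978 and 1514 on the other 3 arrays and at 94.5 on mock, was dim on mock alone. The kinase Syk, which ITAMs recruit, was level (1.04-fold).

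Genes that Toll-like receptor signals are known to induce were mostly high on the TNBS array. Of 15 measured members 13 were 2-fold higher than on mock, with a median of 2.97 (log2). Over all measured genes, 5.08% were 2-fold higher. Il6 and Ptgs2 passed the filter on dim genes through the TNBS array alone. Il10 (-0.11, log2), Il12b (0.28) and Ifnb1 (0.14), which did not pass, stayed within 2-fold of mock. The neutrophil-attracting chemokines Cxcl2 and Cxcl1 were 80.2-fold and 54.0-fold higher, and the chemokines Ccl4 and Ccl3 53.6-fold and 8.37-fold. The cytokines Il1b and Il6 were 19.9-fold and 7.85-fold higher, and the acute-phase protein Saa3 13.5-fold. The feedback regulators Nfkbiz, Nfkbia and Socs3 were at 5.48-fold, 5.30-fold and 4.97-fold, and the cyclooxygenase Ptgs2 was at 3.73-fold. Also higher were Acod1, which makes itaconate in activated macrophages (34.5-fold), and the superoxide dismutase Sod2 (5.65-fold), while Tnf (1.69-fold) and Cxcl10 (-0.89, log2) stayed within 2-fold. On TNBS/zingerone 12 of the 15 were 2-fold lower than on TNBS (median -2.07) and on TNBS/ginger 13 (median -1.93). Over all measured genes, 2.96% were 2-fold lower with zingerone and 2.48% with ginger. Over the ITAM and ITIM list the medians against TNBS were -0.57 with zingerone and -0.42 with ginger, with 2 of 11 lower on each. Tyrobp was 4.09-fold lower with zingerone and 2.82-fold with ginger, and Vav1 2.95-fold with zingerone and 2.31-fold with ginger. Of the TREM, CD300, PIR and LILR list 4 of 10 were 2-fold lower on each treated array than on TNBS, Lilrb4a by 5.71-fold with zingerone and 4.69-fold with ginger. Fcgr4 was 3.11-fold lower with zingerone and 3.17-fold with ginger, and Irak3 4.08-fold and 3.84-fold in the same order.

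**Figure D3:**
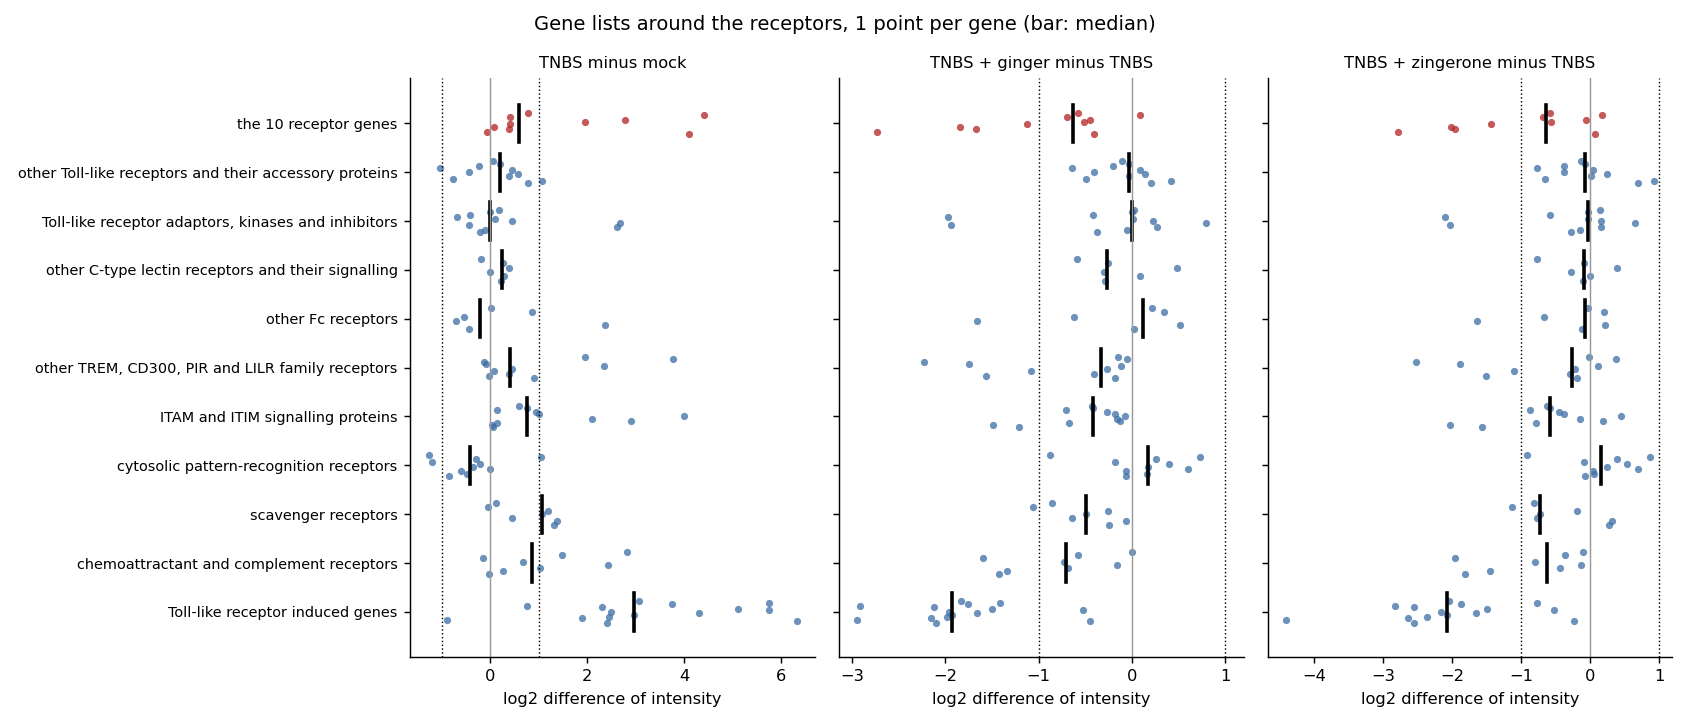
Log2 difference of each gene between 2 arrays, 1 point per gene, in the 10 receptor genes (red, top row) and 10 lists of related genes (blue, measured genes), with black bars for list medians and dotted lines at 2-fold. The Toll-like receptor induced genes have medians of 2.97, -1.93 and -2.07 in the 3 panels, and the receptor genes of 0.60, -0.64 and -0.63.

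Markers of cell types that carry these receptors were read on the same arrays. All 8 epithelial and all 6 smooth muscle markers were measured, and Epcam read 23730 on TNBS/zingerone, 23980 on TNBS/ginger, 16460 on TNBS and 23352 on mock. Of 13 neutrophil markers 7 were measured, and all 7 were 2-fold higher on TNBS than on mock (median 4.21, log2). Over all measured genes, 5.08% were 2-fold higher. The summed intensity of the 7 markers was 75854 on TNBS/zingerone, 96898 on TNBS/ginger, 149636 on TNBS and 5663 on mock. The TNBS-minus-mock difference of the calprotectin genes was 5.83 for S100a9 and 5.12 for S100a8 (log2). The collagenase Mmp8 was 27.5-fold higher on TNBS than on mock, Retnlg 18.6-fold, the gelatinase Mmp9 8.19-fold, the chemokine receptor Cxcr2 2.25-fold (its 2 probes at 2.17 and 0.18, log2) and lactoferrin (Ltf) 2.08-fold. S100a8 and S100a9 made up most of the sums on the 3 arrays with TNBS. Against TNBS, 4 of the 7 were 2-fold lower on each treated array (median -1.21 with zingerone and -1.20 with ginger). These 4 were Mmp8, Mmp9, Retnlg and Ltf. Over all measured genes, 2.96% were 2-fold lower with zingerone and 2.48% with ginger. Csf3r, Ngp, Camp and Mpo, other genes of this list, were below the named-probe median on all 4 arrays. Their TNBS-minus-mock differences were 0.36, 0.45, 0.90 and 0.09 (log2), each less than 2-fold. S100a8 was 1.51-fold lower with zingerone and 1.19-fold lower with ginger than on TNBS, and S100a9 1.45-fold and 1.15-fold in the same order. Cd14 was 6.85-fold lower with zingerone and 6.65-fold lower with ginger. On the TNBS array S100a9 read 59656 and S100a8 43027, both brighter than Cd14 (28071). S100a9 was close to the highest intensity in the data. Whether signals this bright understate folds was not tested, so the decreases of S100a8, S100a9 and Cd14 may not be comparable in size. Over mock, S100a8 remained 23.1-fold higher with zingerone and 29.4-fold with ginger, and S100a9 39.4-fold and 49.6-fold. The part of neutrophil markers in the differences of Cd14, Clec4d, Fcgr3 and Fcer1g was not tested.

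Of 12 monocyte and macrophage markers 9 were measured, and their summed intensity was 6543 on TNBS/zingerone, 8201 on TNBS/ginger, 8046 on TNBS and 8092 on mock. Cd68 alone was 2-fold higher on TNBS than on mock (2.28-fold), and the list median was -0.08 (log2). The growth factor receptor Csf1r was at 1.38-fold, Adgre1 (F4/80) at -0.38, and the complement genes C1qa, C1qb and C1qc were at -0.08, 0.33 and -0.86. Apoe, which other cells express too, made up the largest share of the sums, at 3126 on TNBS/zingerone, 4905 on TNBS/ginger, 4365 on TNBS and 4802 on mock. The part of monocytes and macrophages in the differences of the receptor genes was not tested. Cx3cr1 and Ccr2, chemokine receptors of monocytes and resident macrophages, were below the named-probe median throughout. Cd68 is also on the scavenger receptor list, and Mrc1 (-0.01) is also counted among the lectins.

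Markers of other cell types were also set between TNBS and mock. The medians (log2) were -0.23 for 4 measured B cell markers, with Cd79b 2.05-fold and Cd79a 1.26-fold lower, and -0.16 for 2 T and NK cell markers, Cd3e (0.10) and Cd3g (-0.41). Of 3 measured mast cell markers Hdc, the histamine-forming enzyme, was 2.84-fold higher and Mcpt1 2.47-fold lower (median -0.50). Hdc passed the filter on dim genes through the TNBS array alone, and Mcpt1 through the mock array alone. Fcer1a and Ms4a2, the other chains with which Fcer1g forms the mast cell IgE receptor, were below the named-probe median on all 4 arrays. Endothelial markers had a median of 0.67, with Lyve1 2.79-fold and Eng 2.16-fold higher. Epithelial markers had a median of -0.26, with Krt18 2.12-fold higher and Vil1 at -0.84, and smooth muscle markers of -0.45, with Des at 0.77 and Myh11 at -0.71.

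**Figure D4:**
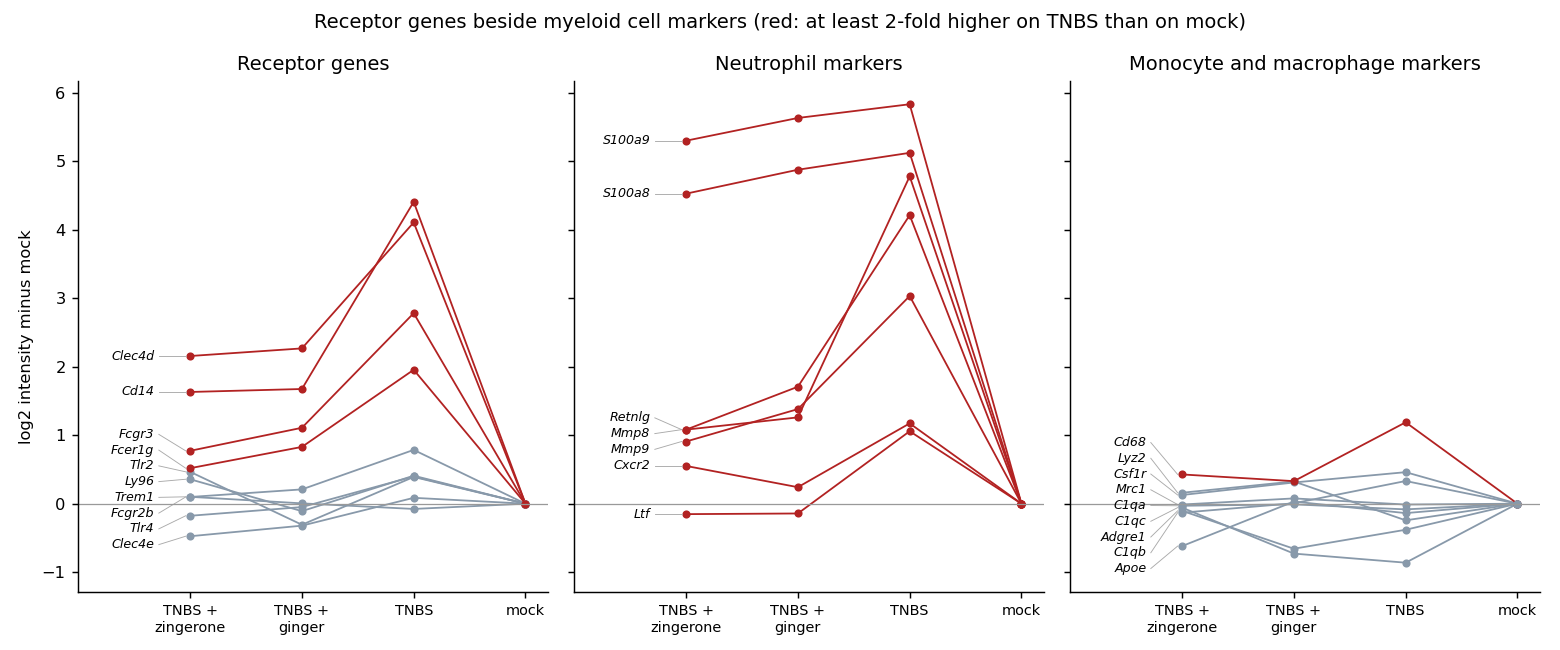
Log2 intensity minus the mock value on the TNBS/zingerone, TNBS/ginger, TNBS and mock arrays for the 10 receptor genes, 7 neutrophil markers and 9 monocyte and macrophage markers, 1 line per gene, in red where TNBS was at least 2-fold above mock. The 4 red receptor lines (1.96 to 4.41 on TNBS) and the red neutrophil lines peak on the TNBS array, while Cd68 is the only red line among the monocyte and macrophage markers.

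Genes whose values over the 4 arrays were most like those of Cd14 were found by the distance between log2 intensities centred on each gene's mean. The 5 nearest measured genes were the interleukin-1 decoy receptor Il1r2 (distance 0.27), the phosphatase Dusp1 (0.29), Retnlg (0.46), Gadd45b (0.48) and Lilrb4a (0.48). Il1r2 read 821 on TNBS/zingerone, 917 on TNBS/ginger, 6346 on TNBS and 233 on mock. Gadd45b, a stress-induced gene, read 1074 on TNBS/zingerone, 1241 on TNBS/ginger, 5348 on TNBS and 359 on mock, and was 14.9-fold higher on TNBS than on mock. Nearest to the median profile of the 9 measured receptor genes were Macf1, Tmx4, Gng11, Flnc and Efhd2, each between 1.69-fold and 1.78-fold higher on TNBS than on mock. The probes of Macf1 and Flnc disagreed in sign, so their means are uncertain. The likeness rests on 4 arrays.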

How the data were processed

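Per the labels, 5 µg of total colon RNA per sample was amplified and coupled to Cy3. The deposited values are linear Cy3 intensity, 1 per probe and array. limma is named in the submitters' processing notes; background handling, normalization, scanner and build were not given in the sources used here. Sorted deposited intensities agree within 1.84% between arrays and begin at 74.25, the pattern of quantile-normalized values without background subtraction, which understates folds of dim probes.

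Symbols of 21020 probes came from the platform annotation, 17558 current, 3410 updated through RefSeq synonyms (GRCm38.p6) and 52 kept. Probes of 1 gene were averaged as log2 intensities, without a pseudocount. No test was run: each comparison is a log2 difference of 2 arrays, called at 2-fold. The receptor genes and the 18 other lists were chosen with earlier results of these data known. The text names all receptor genes, list genes 2-fold apart between TNBS and mock, the 2 largest differences of each list, and the 5 genes nearest in profile to Cd14 and to the receptors' median. Myd88, Tnf, Cxcl10, Syk, Clec4n, Csf1r, Adgre1, Mrc1, Epcam, Apoe, Csf3r, Ngp, Camp, Mpo, Cx3cr1, Ccr2, Fcer1a, Ms4a2, the C1q genes, Nlrp3, Msr1, Marco, C5ar1 and other genes outside that rule were chosen after their values were seen.

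Alternatives were quantile normalization anew, equal medians, subtraction of the 5th percentile (then at least 50), values raised to the 25th percentile, other filters on dim genes, the brightest probe, and thresholds of 1.5-fold and 3-fold. The steps were tested on simulated data (Python 3.11.15, numpy 2.4.6, pandas 2.3.3). The simulated folds were placed in brighter genes, so recovery at the intensities of the dim receptor genes was not tested.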

Additional observations from a re-analysis of the deposited data

How the results depend on the processing

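Over the alternatives, 587 recomputed differences of single receptor genes kept their side of the threshold, 10 newly passed and 3 no longer passed, and none that passed changed sign. The direction of differences below the threshold was not checked. The 3 were Fcer1g against TNBS on both treated arrays and Fcgr3 on ginger against mock, at 3-fold. Many of the 587 were fixed in advance and are no sign of robustness. The filters on dim genes leave a receptor gene's difference unchanged (Fcgr2b, TNBS minus mock, 0.7855 with each). The brightest probe bears on Tlr4 alone, the only receptor gene with 2 probes. Quantile normalization anew and equal medians hardly moved Fcgr2b (0.7859 and 0.7855), while background subtraction gave 1.298. No paired analysis was possible because there is 1 array per group; for the same reason no array was left out in turn.

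With background subtraction the median of the receptor genes became 1.035 (TNBS minus mock), -1.04 (ginger minus TNBS), -1.036 (zingerone minus TNBS) and 0.2017 (ginger minus mock), against 0.60, -0.64, -0.63 and 0.11. Members 2-fold higher with zingerone than with ginger were 1 in place of 0, Tlr2, and likewise 1 at the 1.5-fold threshold. All measured genes higher and lower were then 855 and 841 (TNBS minus mock; 511 and 455 without it), 326 and 416 (ginger minus TNBS), 963 and 534 (zingerone minus TNBS), 296 and 280 (ginger minus mock), 379 and 195 (zingerone minus mock), and 314 and 63 (zingerone minus ginger). In the same order the counts were 1190 and 1230, 609 and 644, 1320 and 865, 498 and 523, 643 and 514, and 488 and 159 at 1.5-fold, and 228 and 118, 31 and 89, 79 and 115, 68 and 38, 63 and 33, and 16 and 19 at 3-fold. Receptor genes at 3-fold were 4 higher on TNBS than on mock and 3 lower on each treated array than on TNBS. A filter at the 75th percentile left 5 of the receptor genes measured.

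Signal over background limits Trem1, Fcgr2b, Tlr2 and 1 Tlr4 probe, which lie near the median of the named probes.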

Other observations

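Receptors of other kinds did not all follow Cd14. Of 10 measured cytosolic pattern-recognition receptors and their partners, 8 lay below mock on the TNBS array, as did 53.7% of all measured genes. The list median was -0.42 (log2), against -0.04 over all measured genes. Nlrp6, an inflammasome receptor of the gut epithelium, read 1476 on TNBS/zingerone, 1882 on TNBS/ginger, 1243 on TNBS and 3003 on mock. Naip2, which senses bacterial secretion systems, read 608 on TNBS/zingerone, 439 on TNBS/ginger, 334.5 on TNBS and 772 on mock. Both were more than 2-fold lower on TNBS, by 1.27 and 1.21 on the log2 scale. Nod2, a sensor of muramyl dipeptide, was 2.07-fold higher, with its 2 probes at 1.21 and 0.89. Nod2 passed the filter on dim genes through the TNBS array alone, and Nod1 through the mock array alone. Nlrp3 was below the named-probe median on all 4 arrays.

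Among 7 measured scavenger receptors 4 were 2-fold higher on TNBS than on mock (median 1.06): Olr1 (2.59-fold), Cd36 (2.48-fold), Cd68 (2.28-fold) and Scarb2 (2.09-fold). Over all measured genes, 5.08% were 2-fold higher. The Olr1 mean rests on 1 of 2 probes (2.67 and 0.07), and Olr1 passed the filter on dim genes through the TNBS array alone. Msr1 (0.63, log2), Marco (0.40) and Cd163 (-0.09) did not pass and stayed within 2-fold of mock. Chemoattractant and complement receptors had 4 of 8 higher (median 0.85). They were Hcar2 (7.09-fold), the formyl peptide receptor Fpr2 (5.39-fold), the leukotriene B4 receptor Ltb4r1 (2.77-fold) and the integrin chain Itgb2 (2.03-fold). C5ar1 was level (-0.02, log2). Hcar2 is a hydroxycarboxylic acid receptor, of neither kind, that was counted in this list. Fpr2 read 532.5 on TNBS/zingerone, 685 on TNBS/ginger, 2075 on TNBS and 385 on mock. Hcar2 read 427 on TNBS/zingerone, 556 on TNBS/ginger, 1494 on TNBS and 211 on mock. On each treated array 3 of these 8 genes were 2-fold lower than on TNBS, Fpr2, Hcar2 and Ltb4r1. Over all measured genes, 2.96% were 2-fold lower with zingerone and 2.48% with ginger.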
